A study of Mus musculus with 18 samples.

Results

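The probes described here gave a lower signal in the forelimb digit tips of Fzd6-/- mouse embryos than in those of wild-type embryos at each of 3 embryonic stages. They were chosen by their values: the log2 ratio of digit-tip signal over reference signal, from the scanner's processed signals, had to be lower by at least 1 (2-fold) without Fzd6 at E14.5, at E16.5 and at E18.5. Of the 42006 probes on the array, 193 met this at all 3 stages, and 152 of them were also well above background in the digit-tip channel on all 9 wild-type arrays. Another 6 were dropped because their wild-type signal was at least 2-fold higher at E16.5 than at both other stages, which left 146 members. The difference between the genotypes is therefore what chose these probes, and it is described below with no test.

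Digit tips were taken from C57BL/6 embryos from crosses of Fzd6+/- mice, wild type (WT) or Fzd6-/- (KO), at the stages E14.5, E16.5 or E18.5, with the morning after mating counted as E0.5. Each of the 6 groups held 3 arrays, 18 in all, and per the design text RNA came from single embryos; the labels give mixed sex, and whether embryos of different groups were littermates is not given in the sources used here. The digit-tip RNA was always labelled with the green dye Cy3. The red dye Cy5 marked a common reference, which joined pooled RNA of 11 cell lines to that of 129ES (embryonic stem) cells. The arrays lay on 5 slides and were scanned in 2 batches, replicates 1 and 2 first and replicate 3 later. Slide 4 is the only slide with both genotypes at the same stage (E14.5, replicate 3), so at E16.5 and at E18.5 genotype and slide cannot be told apart.

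Fzd6 encodes a Frizzled receptor, a membrane protein with a Wnt-binding domain outside the cell. Frizzled receptors pass Wnt signals on either through beta-catenin or through the planar cell polarity pathway, which orients cells within a sheet, and Fzd6 is best known for the second in skin and hair. Loss of its function in mice and in people disturbs the claws or nails, which form from an epithelial fold on the digit tip. The files pair none of the 42006 probe IDs with a gene. The Fzd6 probe, the marker genes of the tissue and the genes of the Wnt pathway were therefore not analysed here, and the members are named by their IDs and shown by their sequences.

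Each member is a 60-base oligonucleotide. The probes below are shown because the results turn on them: the first 3 ranked highest by mean difference in the processed signals, a rank with no firm order because their KO signal was mostly not above background, the next 2 had the largest falls among probes still measured on every KO array and in the retest on replicate 3, and the last changed most with stage in both genotypes. They run 5′ to 3′, and capitals mark AATAAA, the letters of the common polyadenylation signal, where a probe holds them.
Z00029872-1: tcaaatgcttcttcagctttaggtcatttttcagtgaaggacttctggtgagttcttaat
Z00074193-1: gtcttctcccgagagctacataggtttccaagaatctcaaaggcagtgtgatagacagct
Z00057348-1: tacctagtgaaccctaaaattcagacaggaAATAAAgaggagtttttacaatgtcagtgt
Z00012139-1: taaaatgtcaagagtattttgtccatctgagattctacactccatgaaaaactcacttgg
Z00070639-1: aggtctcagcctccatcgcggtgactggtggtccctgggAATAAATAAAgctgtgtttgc
Z00035731-1: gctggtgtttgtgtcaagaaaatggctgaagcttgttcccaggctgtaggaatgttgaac

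Over the 146 members, the median difference KO minus WT in the processed log2 ratio was -1.96 at E14.5, -1.91 at E16.5 and -2.04 at E18.5. Single members ranged from -6.18 to -1.01 at E14.5, from -5.75 to -1.06 at E16.5 and from -6.47 to -1.003 at E18.5. Among all 42006 probes, 3.11% were at or below -1 at E14.5, 3.45% at E16.5 and 3.27% at E18.5. The fall lay in the digit-tip channel: the members' median difference in Cy3 was -1.92, -1.84 and -2.03 at the 3 stages, and in the reference channel Cy5 it was 0.05, 0.02 and -0.04. In such bulk tissue, fewer cells of a type and less RNA per cell cannot be told apart.

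The size of the fall was much alike across stages for many members and unequal for others. The 3 stage differences of a member lay within 0.5 log2 of each other for 56 members and within 1 log2 for 108. The fall was largest at E14.5 for 52 members, at E16.5 for 30 and at E18.5 for 64. Averaged over the stages, 71 members had a mean processed difference at or below -2, 25 at or below -3 and 15 at or below -4. These sizes are not fold changes that the arrays resolved where KO signal was not above background: Z00051023-1, at -4.46, was 2.30-, 1.87- and 1.82-fold lower at the 3 stages by the background-corrected ratios used below.

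All further values are on a second scale, log2 of Cy3 over Cy5 after background correction by normexp with an offset of 50 and loess normalization within each array. The offset draws dim signals together, so falls toward background are smaller here than in the processed signals. On this scale the members' median difference was -1.205 at E14.5, -1.08 at E16.5 and -1.03 at E18.5, against medians of -0.0032, 0.02 and 0.03 over the 27989 probes that entered the fits. All 146 members were below 0 at each stage, and 98, 87 and 75 of them were at or below -1. Within the first scan batch the medians were -1.19, -1.09 and -1.01, and within the second they were -1.2, -1.16 and -1.17. By limma, 5.22% of all tested probes were called lower in KO at E14.5, 6.14% at E16.5 and 3.13% at E18.5; as the rule used these contrasts, the members' own calls are not counted.

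The 3 KO arrays lay below all 3 WT arrays for 143 members at E14.5, 137 at E16.5 and 129 at E18.5, where 20%, 15% and 9.45% of all tested probes did so. For 122 members this held at every stage, a count whose share over all tested probes was not taken. For 92 members all 9 KO arrays lay below all 9 WT arrays, as they did for 0.69% of all tested probes. Since the rule used these differences, the counts describe the choice. Among the WT arrays, E18.5 replicate 1 stood apart: its median ratio over the members was 0.18, against 0.57 and 0.64 in the other WT E18.5 arrays, and without it the median difference at E18.5 was -1.17.

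How far the members fell can be read only as far as the arrays measured them. In KO tissue, 90 members were well above background on all 9 arrays, 39 on 1 to 8 arrays and 17 on none. Single KO arrays measured 96 to 126 of the members above background, while 59.8% to 69.2% of all probes were above it on each of the 18 arrays. In the reference channel 119 members were well above background on all 18 arrays and 5 on none. No member had a saturated or outlying spot, and each had 1 spot per array, so the precision of every value is limited by the number of arrays.

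The largest mean fall in the processed ratio, -6.04, was that of Z00029872-1. Its values in WT replicates 1, 2 and 3 were 1.57, 1.5 and 1.62 at E14.5, 1.11, 0.63 and 1.86 at E16.5, and 0.84, 2.10 and 2.05 at E18.5. In KO they were -0.80, -0.56 and -0.57, then -0.63, -0.55 and -0.49, then -0.48, -0.39 and -0.52. Every KO array lay below every WT array, and no KO array measured the probe well above background. Bounds are therefore given for such probes from the Cy3 signals, with KO taken at its own signal or at the lowest signal of a probe well above background on that array, whichever was larger. Z00029872-1 was at least 3.79-fold lower in KO at E14.5, at least 3.07-fold at E16.5 and at least 3.74-fold at E18.5. Both genotypes were labelled with Cy3, and these signals are not ratios to the reference on the same array. Such bounds are therefore open to differences in signal between arrays, and a bound above the fold in the ratios is not given. The bounds compare group means and leave out the spread between arrays, so they are not limits for single arrays.

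Z00074193-1 had a mean processed fall of -5.84. WT arrays gave 0.50, 0.40 and 0.38 at E14.5, -0.12, 0.02 and 0.47 at E16.5, and 0.25, 0.25 and 0.45 at E18.5. KO arrays gave -3.28, -2.83 and -3.12, then -3.10, -2.76 and -3.17, then -2.74, -2.59 and -2.90. The genotypes were separated by more than 2 log2 units between any WT and any KO array, and their means differed by -3.50 at E14.5 and -3.13 at E16.5. KO signal was above background on 2 arrays at E14.5, on 1 at E16.5 and on none at E18.5, where the probe was at least 8.02-fold lower.

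Z00057348-1 had a mean processed fall of -5.54, and its reference signal was above background on 6 of the 18 arrays. In WT it gave 2.84, 3.28 and 3.37 at E14.5, 3.11, 3.90 and 3.51 at E16.5, and 2.38, 3.97 and 4.42 at E18.5. In KO it gave -0.03, -0.10 and -0.00, then 0.04, 0.12 and 0.13, then 0.12, 0.13 and 0.03. Every KO array lay below every WT array, and 1 KO array, at E14.5, measured the probe above background. The difference at E14.5 was -3.21; at the later stages the fall is only a limit, and no bound is given because the one from Cy3 exceeded the fold in the ratios.

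For Z00075664-1 the difference between the genotypes was largest at E14.5 and smallest at E18.5. WT values were 1.37, 1.25 and 1.62 at E14.5, 0.86, 0.41 and 0.63 at E16.5, and 0.10, 0.52 and 0.26 at E18.5. KO values were -0.74, -0.61 and -0.53, then -0.74, -0.74 and -0.52, then -0.70, -0.67 and -0.56, none of them well above background. The bound was at least 3.65-fold lower in KO at E14.5, 2.16-fold at E16.5 and 1.72-fold at E18.5, and the groups did not overlap at any stage.

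Z00073966-1 was uneven in WT tissue at E14.5, where its arrays gave 0.89, -0.69 and -1.97. At E16.5 WT arrays gave -0.52, -0.76 and -0.12, and at E18.5 0.29, 0.21 and 0.39. KO arrays, none above background, gave -2.51, -2.20 and -2.39, then -2.41, -2.21 and -2.43, then -1.93, -1.96 and -2.27. The groups did not overlap at any stage, but WT E14.5 replicate 3 came within 0.5 of the closest KO array of its stage. The probe was at least 3.12-fold lower in KO at E14.5, 3.38-fold at E16.5 and 4.95-fold at E18.5.

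Z00075360-1 gave 2.50, 2.30 and 2.36 in WT at E14.5, 2.44, 1.65 and 1.29 at E16.5, and 1.36, 2.87 and 2.85 at E18.5. In KO it gave -0.60, -0.43 and -0.29, then -0.36, -0.57 and -0.45, then -0.49, -0.50 and -0.48. No KO array came near a WT array, and the differences were -2.83, -2.25 and -2.85. KO signal passed background on 1 array at E14.5, 3 at E16.5 and 1 at E18.5.

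Z00016674-1 gave 0.15, 0.24 and -0.91 in WT at E14.5, -0.02, 0.13 and 0.43 at E16.5, and -0.18, 0.01 and 0.30 at E18.5. KO arrays, none above background, gave -1.70, -1.41 and -1.22, then -1.54, -1.04 and -1.49, then -1.23, -1.17 and -1.30. WT E14.5 replicate 3 was the WT array closest to them, and the groups did not overlap.

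Z00026487-1 is 1 of the 5 members with no measured reference signal, so its ratio follows Cy3 alone. WT arrays gave 1.84, 1.48 and 1.72 at E14.5, 1.28, 0.55 and 1.47 at E16.5, and 0.68, 2.11 and 1.81 at E18.5. KO arrays, none above background, gave 0.17, 0.16 and 0.15, then 0.20, 0.15 and 0.14, then 0.05, 0.13 and 0.15. The bound was 2.45-fold lower at E14.5, 1.85-fold at E16.5 and 2.46-fold at E18.5, with no overlap between groups.

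Z00066089-1 gave 1.61, 1.20 and 1.45 in WT at E14.5, 0.94, 0.42 and 1.36 at E16.5, and 0.33, 1.35 and 1.14 at E18.5. KO arrays gave -0.28, -0.11 and -0.30, then -0.21, -0.20 and -0.35, then -0.21, -0.13 and -0.16. None of these KO arrays was above background, and the probe was at least 2.98-fold lower in KO at E14.5, 2.07-fold at E16.5 and 2.02-fold at E18.5. As with several members, WT E16.5 replicate 2 and WT E18.5 replicate 1 were the lowest of their groups.

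Z00051023-1, the tenth by mean fall, gave 0.74, 0.57 and 0.63 in WT at E14.5, 0.49, 0.25 and 0.50 at E16.5, and 0.11, 0.55 and 0.35 at E18.5. KO arrays gave -0.63, -0.54 and -0.50, then -0.43, -0.43 and -0.60, then -0.44, -0.62 and -0.53. No KO array was above background, and all lay below every WT array. The bound was 2.02-fold lower at E14.5 and 1.70-fold at E16.5.

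Another 10 members had no KO array well above background, and for them too the fall is only a bound. Z00062996-1 gave 2.00, 1.82 and 1.85 in WT at E14.5, 2.29, 0.93 and 1.93 at E16.5, and 0.46, 2.04 and 1.26 at E18.5. Its KO arrays gave -0.18, -0.10 and -0.09, then -0.10, 0.05 and -0.07, then 0.02, -0.05 and -0.22. The groups did not overlap, and the probe was at least 4.01-fold lower in KO at E14.5 and 2.36-fold at E18.5.

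Z00022944-1 gave 1.53, 1.34 and 1.48 in WT at E14.5, 1.39, 0.46 and 1.06 at E16.5, and 0.17, 1.54 and 0.94 at E18.5. Its KO arrays gave 0.10, 0.01 and 0.14, then 0.31, 0.08 and 0.20, then 0.10, 0.20 and 0.01. At E18.5 the groups overlapped, since WT replicate 1 lay below KO replicate 2. Between group means the bound was 2.43-fold lower at E14.5, 1.67-fold at E16.5 and 1.65-fold at E18.5, where it does not hold for every pair of arrays.

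Z00041984-1 gave 0.36, 0.31 and 0.51 in WT at E14.5, 0.92, 0.35 and 0.75 at E16.5, and 0.15, 1.23 and 0.75 at E18.5. KO arrays gave -0.32, -0.24 and -0.26, then -0.29, -0.27 and -0.28, then -0.39, -0.31 and -0.30. WT E18.5 replicate 1 was the lowest WT array, and the groups did not overlap. The probe was at least 1.77-fold lower in KO at E16.5 and 1.78-fold at E18.5.

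Z00076996-1 gave 0.44, 0.48 and 0.57 in WT at E14.5, 0.25, 0.05 and 0.31 at E16.5, and 0.05, 0.36 and 0.17 at E18.5. KO arrays gave -0.56, -0.60 and -0.40, then -0.75, -0.53 and -0.49, then -0.48, -0.20 and -0.53. The groups did not overlap, and the bound was 1.97-fold lower at E14.5 and 1.57-fold at E16.5.

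Z00030613-1 gave 0.40, 0.32 and 0.39 in WT at E14.5, 0.20, 0.06 and 0.05 at E16.5, and -0.02, -0.09 and -0.17 at E18.5. KO arrays gave -0.89, -0.69 and -0.82, then -0.76, -0.56 and -0.99, then -0.73, -0.78 and -0.83. KO lay below WT throughout, by at least 1.80-fold at E16.5 and 1.59-fold at E18.5.

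Z00076111-1 gave 0.69, 0.68 and 0.91 in WT at E14.5, 0.92, 0.22 and 0.45 at E16.5, and 0.06, 0.26 and 0.17 at E18.5. KO arrays gave -0.20, -0.25 and -0.21, then -0.25, -0.29 and -0.12, then -0.38, -0.11 and -0.12. Its bound was 1.82-fold lower at E14.5, 1.56-fold at E16.5 and 1.25-fold at E18.5, with no overlap between groups.

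Z00076858-1 gave 0.02, -0.01 and 0.03 in WT at E14.5, -0.25, -0.22 and -0.30 at E16.5, and -0.07, -0.33 and -0.28 at E18.5. KO arrays gave -1.05, -0.82 and -0.94, then -0.87, -0.97 and -0.96, then -0.58, -0.83 and -0.81. The groups stood apart at each stage, and the bound was 1.51-fold lower at E16.5.

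Z00064395-1 had WT values of -0.94, -0.62 and -0.76 at E14.5, -0.63, -0.37 and -0.72 at E16.5, and -0.15, -0.68 and -0.48 at E18.5. KO arrays gave -1.33, -1.01 and -1.15, then -1.30, -1.22 and -1.13, then -1.24, -0.99 and -1.14. The gap at E14.5 was narrow, between WT replicate 1 and KO replicate 2, and the bound was 1.27-fold lower at E14.5, 1.40-fold at E16.5 and 1.46-fold at E18.5.

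Z00068363-1 had WT values of -0.19, -0.14 and -0.24 at E14.5, -0.11, 0.02 and -0.16 at E16.5, and -0.02, -0.12 and -0.07 at E18.5. KO arrays gave -1.02, -0.63 and -0.18, then -0.80, -0.86 and -0.85, then -0.81, -0.70 and -0.82. At E14.5 KO replicate 3 lay within the WT arrays, so the groups overlapped there. At the later stages they did not, with bounds of 1.44-fold and 1.59-fold lower.

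Z00061096-1 showed the smallest mean processed fall, -1.95, of the 17 members that no KO array measured. WT arrays gave 0.41, 0.37 and 0.55 at E14.5, 0.28, 0.10 and 0.38 at E16.5, and 0.02, -0.14 and -0.08 at E18.5. KO arrays gave -0.04, -0.03 and -0.18, then -0.09, -0.27 and -0.16, then -0.25, -0.21 and -0.23. The groups did not overlap within a stage, and the bound was 1.28-fold lower at E16.5 and 1.07-fold at E18.5.

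At the other end, the threshold cuts through a continuous range of differences. The weakest of the 3 processed differences was -1.003 for Z00016402-1, -1.009 for Z00011311-1 and -1.011 for Z00013540-1, which are just inside. It was -0.996 for Z00029757-1, -0.989 for Z00053517-1 and -0.986 for Z00062711-1, which are just outside. The number of members depended on the signal correction: the same rule on normexp and loess values gave 60 probes, 59 of them members, while median centring gave 43, Cy3 alone gave 53, the deposited value table gave 83 and signals without background subtraction gave 84.

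Some members are different probes for overlapping sequence. Searched on both strands against all probes, 11 members shared a run of 20 or more identical bases with another probe, in 8 pairs, 4 of them between 2 members. These are not independent members. In the pairs shown, capitals mark the longest shared run.
Z00057992-1: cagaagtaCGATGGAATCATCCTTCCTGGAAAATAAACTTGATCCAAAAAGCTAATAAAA
Z00030528-1: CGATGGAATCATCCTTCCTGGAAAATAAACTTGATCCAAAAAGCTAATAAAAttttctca
Z00030300-1: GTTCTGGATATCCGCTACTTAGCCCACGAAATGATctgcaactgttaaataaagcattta
Z00060696-1: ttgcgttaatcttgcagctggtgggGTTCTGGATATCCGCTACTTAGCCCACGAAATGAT
Z00004362-1: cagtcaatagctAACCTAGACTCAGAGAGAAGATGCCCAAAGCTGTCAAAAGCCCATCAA
Z00034404-1: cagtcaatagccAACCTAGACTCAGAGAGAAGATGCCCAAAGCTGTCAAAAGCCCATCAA
Z00035398-1: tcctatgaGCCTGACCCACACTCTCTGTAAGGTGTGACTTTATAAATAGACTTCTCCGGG
Z00023230-1: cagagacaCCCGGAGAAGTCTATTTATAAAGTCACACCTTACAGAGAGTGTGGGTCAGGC

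Z00057992-1 and Z00030528-1, shifted against each other by 8 bases and sharing 52, fell by different amounts. Z00057992-1 gave 0.75, 0.76 and 0.72 in WT and -1.77, -1.60 and -2.04 in KO at E14.5. Z00030528-1 gave 0.76, 0.70 and 0.75 in WT and -0.60, -0.71 and -0.61 in KO on the same arrays. Both probes separated the genotypes on every array, with differences of -2.55, -2.48 and -2.46 at the 3 stages for the first and of -1.37, -1.34 and -1.31 for the second. Both were well above background on all 9 KO arrays, and the cause of the gap was not tested.

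Z00030300-1 and Z00060696-1 share 35 bases, and only the first is a member. Z00030300-1 gave -0.55, -0.56 and -0.62 in WT and -2.19, -2.26 and -2.61 in KO at E14.5. Z00060696-1 gave -0.69, -0.67 and -0.74 in WT and -1.17, -1.01 and -1.06 in KO. Its processed difference was -0.33, -0.31 and -0.07 at the 3 stages, against -1.82, -1.43 and -1.30 for Z00030300-1, the probe that lies further toward the 3′ end. The overlapping probe outside the set thus differed less between the genotypes at each stage.

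Z00004362-1 and Z00034404-1 cover the same 60 bases with 1 substitution, T12C, counted from the 5′ end of Z00004362-1. Their arrays were close to each other: at E14.5 Z00004362-1 gave 1.81, 1.30 and 1.97 in WT and -0.13, 0.01 and -0.15 in KO. Z00034404-1 gave 1.81, 1.29 and 1.92 in WT and -0.02, 0.00 and -0.39 in KO. The pairs Z00034766-1 with Z00060812-1 (52 shared bases) and Z00060776-1 with Z00074754-1 (57 shared bases) were equally close. At E14.5, for example, Z00034766-1 gave 0.79, 0.67 and 1.06 in WT and Z00060812-1 0.93, 0.79 and 1.20. These 6 probes thus hold 3 measured sequences.

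Z00030898-1 shares 38 bases with Z00077299-1, which missed the rule through a processed difference of 0.04 at E16.5. After normexp and loess the 2 probes had similar values: at E16.5 Z00030898-1 gave 3.07, 2.76 and 3.32 in WT and 1.71, 1.99 and 2.26 in KO. Z00077299-1 gave 2.88, 2.12 and 2.93 in WT and 1.66, 1.63 and 1.87 in KO. Both had KO below WT on every E16.5 array.

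For Z00035398-1 the overlapping probes lie on the opposite strand, and they were not lower in KO at E14.5. Z00035398-1 gave -0.44, -0.50 and -0.53 in WT and -1.53, -1.12 and -1.24 in KO at E14.5. Z00023230-1, which holds the reverse complement of 52 of its bases, gave -1.02, -1.08 and -1.14 in WT and -0.80, -0.41 and -0.69 in KO. Its processed difference was 0.49 at E14.5, 0.55 at E16.5 and -0.06 at E18.5, and Z00064826-1, which shares a run of 55 bases on that strand, had 0.52, 0.54 and -0.03. The 2 strands of this sequence therefore differed in opposite ways at E14.5.

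A test of the fall itself needs arrays that did not choose the probes. The rule was therefore applied again to replicates 1 and 2 alone, which gave 146 probes, 127 of them in the set above, and these were tested in the 6 arrays of replicate 3, in a fit over 28815 probes. Their median difference KO minus WT, averaged over stages, was -1.11, with a range from -3.82 to 0.04, against a median of 0.02 over all tested probes. In replicate 3, 144 of the 146 were below 0 on the average and 135 were below 0 at all 3 stages. At or below -1 were 82 of them, as were 0.895% of all tested probes, and 55 were at or below -1 at each stage. For the counts of 144, 135 and 55 the share of all tested probes was not taken.

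The medians by stage were -1.18, -1.06 and -1.01. On slide 4, where WT and KO at E14.5 lay side by side, 143 of the 146 were below 0 and 91 at or below -1. For neither of these counts was the share of all tested probes taken. The exceptions on the average were Z00016441-1, at 0.01, and Z00055301-1, at 0.04.

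In limma's test with Benjamini-Hochberg adjustment over all probes, 27 of the 146 were lower in KO and 0 were higher, where 0.0972% of all tested probes were called lower. At an unadjusted p under 0.05, 134 were lower, but the share of all tested probes at that threshold was not taken. With 1 array per group and 2 residual degrees of freedom these calls are fragile, and leaving out single arrays gave 14 to 73 calls. Without 1 array of replicate 3, the other array of its stage adds nothing to the genotype difference, so such fits rest on the other stages. The count was 14 without WT or KO E16.5 replicate 3, 73 without WT or KO E18.5 replicate 3, and 17 without any 1 of 10 of the 12 arrays of replicates 1 and 2. It was 0 with median centring or with the deposited value table, 3 with processed signals or with Cy3 alone and 8 without a filter on dim probes, while the median difference stayed at or below -0.89 in each of these settings.

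The largest tested falls were those of 2 of the probes shown above. Z00012139-1 differed by -3.82 ± 0.13 (SE, adjusted p = 0.00743 by limma). Z00070639-1 differed by -3.72 ± 0.13 with the same adjusted p, as did Z00074193-1 with -3.50 ± 0.12. Z00057348-1 differed by -3.72 ± 0.24 (adjusted p = 0.0373) and Z00057992-1 by -2.64 ± 0.12 (adjusted p = 0.0202). For Z00074193-1 and Z00057348-1, which KO arrays mostly did not measure above background, these values rest mostly on KO signal below the measured range. Between Z00074193-1 and Z00057992-1 ranked Z00056200-1, at -2.87 ± 0.22, and Z00007879-1, at -2.84 ± 0.16. All the probes of this paragraph were lower in KO at all 3 stages of replicate 3, by between -2.27 and -4.40 for each probe and stage.

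Z00012139-1 shows what a large fall looks like where every array measured the probe. It gave 3.52, 3.40 and 4.58 in WT at E14.5, 3.74, 3.27 and 4.05 at E16.5, and 2.56, 2.89 and 3.48 at E18.5. KO arrays gave 0.75, 0.75 and 0.77, then 0.19, -0.13 and 0.01, then -0.40, -0.23 and -0.12. Within each stage, every KO array was more than 2 log2 units below every WT array. Z00070639-1 had WT means of 3.51 ± 0.04, 3.08 ± 0.15 and 3.34 ± 0.76 at the 3 stages and KO means of -0.23 ± 0.10, -0.24 ± 0.07 and 0.13 ± 0.13 (SD, n = 3).

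The members were not alike in how they changed as the digit tips developed. The rule set no condition on the stage changes tested here, though its last step compared WT E16.5 with the other WT stages and every group mean entered the choice. In WT tissue, from E14.5 to E18.5, 32 of the 146 members rose and 32 fell by limma at an adjusted p under 0.05, 21.9% each, where 18.9% of all tested probes rose and 25.2% fell. The members' median change was 0.04, against -0.03 over all tested probes, with a range from -1.43 to 3.68. The balance of rises and falls depended on the processing: 39 rose and 27 fell with processed signals, 11 rose and 41 fell with median centring, and 39 rose and 23 fell without WT E18.5 replicate 1. In the deposited value table, which holds 83 of the members, 22 rose and 13 fell, and of the 90 above background on all arrays 28 rose and 12 fell. Leaving out single arrays gave 29 to 39 rises and 22 to 45 falls.

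In KO tissue, more members rose than fell in this fit. From E14.5 to E16.5, 16 members rose and 1 fell (10.96% and 0.685%), where 12.2% and 11.5% of all tested probes did. From E16.5 to E18.5, 9 rose and 4 fell, 6.16% and 2.74%, against 13.8% and 13.1%. Over the whole span, 31 rose and 9 fell, 21.2% and 6.16%, against 24.3% and 25.7%. With processed signals the falls were more: 20 rose and 8 fell in the first step, 19 and 19 in the second, and 36 and 27 over the whole span. With median centring 6 rose and 0 fell, 3 rose and 1 fell, and 10 rose and 7 fell.

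The members had to be above background only on WT arrays, so a fall with stage in KO could not be seen for those that KO arrays did not measure. Of the 17 members that no KO array measured, none was called in either direction for any KO stage change, while 7 of them fell and 0 rose in WT. Among the 90 members measured on all 9 KO arrays, 27 rose and 7 fell in KO from E14.5 to E18.5, and 28 rose and 12 fell in WT. Of all tested probes, 24.3% rose and 25.7% fell in KO over this span, and 18.9% rose and 25.2% fell in WT. Whether the choice of members accounts for the low counts of KO falls over all 146 was not tested. The 17 calls of the first step became 11 without KO E14.5 replicate 3.

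The stage changes of WT and KO can be set side by side for the same members. From E14.5 to E18.5, 18 members rose in both genotypes, 56.2% of those that rose in WT and 58.1% of those that rose in KO. Another 6 fell in both, 18.8% of those that fell in WT and 66.7% of those that fell in KO. Only Z00012780-1 fell in WT and rose in KO, none did the reverse, and 67 members were called in neither genotype. The same shares were not taken over all tested probes, so this overlap cannot be read as particular to the members.

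Z00035731-1 rose most in both genotypes, and its KO arrays trailed those of WT. WT arrays gave -1.23, -1.29 and -1.53 at E14.5, 1.31, 1.46 and 1.24 at E16.5, and 2.09, 2.26 and 2.64 at E18.5. KO arrays gave -4.07, -3.95 and -4.16, then -1.35, -0.83 and -1.12, then 0.81, 0.84 and -0.09. The KO arrays at E16.5 overlapped the WT arrays of E14.5, and at each single stage KO lay below WT. From E14.5 to E18.5 the probe rose by 3.68 ± 0.21 in WT (SE, adjusted p = 3.425e-09 by limma) and by 4.58 ± 0.21 in KO (adjusted p = 1.409e-10). The difference between these 2 changes was not tested.

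Z00025659-1 rose by 3.21 ± 0.53 in WT (adjusted p = 0.000185 by limma), but its WT E18.5 arrays were far apart. They gave -0.24, 0.03 and 2.31, after -2.51, -2.48 and -2.55 at E14.5 and -0.48, 0.66 and -0.18 at E16.5. KO arrays gave -3.88, -2.81 and -3.91, then -2.65, -1.49 and -2.78, then -1.87, -1.91 and -1.90. Each KO array lay below the WT arrays of its stage, and at E14.5 the closest pair differed by less than 0.5.

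Z00016402-1, just inside the threshold, rose sharply and early in both genotypes. WT arrays gave 0.30, 0.35 and 0.11 at E14.5, 2.74, 2.79 and 2.52 at E16.5, and 2.51, 2.54 and 2.70 at E18.5. KO arrays gave -2.94, -1.58 and -1.43, then 1.74, 1.57 and 1.25, then 1.77, 1.07 and 2.21. In KO the probe rose by 3.51 ± 0.32 from E14.5 to E16.5 (SE, adjusted p = 8.829e-07 by limma) and by 3.67 ± 0.32 up to E18.5. The KO arrays stayed below the WT arrays of the same stage while both rose.

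Z00056832-1 rose late in KO, by 1.71 ± 0.45 from E16.5 to E18.5 (adjusted p = 0.00997 by limma). Its KO arrays gave 0.06, 0.17 and 0.57 at E14.5, 1.08, 0.93 and 0.91 at E16.5, and 2.81, 2.39 and 2.86 at E18.5. WT arrays gave 1.07, 0.39 and 0.56, then 3.27, 2.39 and 2.64, then 2.23, 4.30 and 4.72. WT and KO arrays overlapped at E14.5 and at E18.5 on this scale, although the processed differences were -1.89 and -1.48, and the call was lost with median centring (adjusted p = 0.0624).

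In WT the largest falls with stage were those of Z00035812-1 and Z00047218-1. Z00035812-1 fell by 1.43 ± 0.31 (adjusted p = 0.00183 by limma), from 2.75, 2.34 and 2.59 at E14.5 to 0.34, 1.83 and 1.22 at E18.5, while its KO arrays went from 0.60, 0.48 and 0.32 to 0.21, 0.25 and 0.20. Z00047218-1 fell by 1.41 ± 0.18 (adjusted p = 1.996e-05), from 2.20, 1.77 and 1.69 to 0.55, 0.13 and 0.74, while its KO arrays went from -0.56, -0.50 and -0.80 to -1.32, -1.25 and -1.18. The difference between the genotypes narrowed for both, from -2.10 to -0.91 and from -2.51 to -1.72, without a test. Z00047218-1 was well above background on all 9 KO arrays. Z00035812-1 was so on only 1 KO array at E18.5, and in the reference channel on 4 of the 18 arrays, so its difference at E18.5 is poorly measured.

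In KO the called falls were small. Z00026007-1 fell by 1.09 ± 0.27 from E14.5 to E18.5 (adjusted p = 0.00303 by limma), and its KO arrays gave 1.57, 1.59 and 1.76, then 1.89, 1.42 and 1.03, then 0.81, 0.46 and 0.39. Its WT arrays gave 3.59, 3.35 and 3.44, then 3.54, 3.13 and 3.49, then 2.32, 3.69 and 3.00, so that the genotypes never overlapped. The fall of 0.90 ± 0.27 from E16.5 to E18.5 (adjusted p = 0.0210) was no longer called without KO E16.5 replicate 1 or 2, without KO E18.5 replicate 2 or 3, or with median centring, where the adjusted p ranged from 0.0519 to 0.105.

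Z00012139-1 fell by 1.00 ± 0.28 in KO from E14.5 to E18.5 (adjusted p = 0.0066 by limma). Z00012876-1, the only member that fell from E14.5 to E16.5 in KO, moved by -0.30 ± 0.09 (adjusted p = 0.0272), from -0.89, -1.02 and -0.86 to -1.25, -1.29 and -1.13. That call was lost without KO E14.5 replicate 1 or 3, without KO E16.5 replicate 1 or 2, and with median centring, where the adjusted p ranged from 0.0760 to 0.556. Z00030898-1 fell by 0.86 ± 0.30 from E16.5 to E18.5 (adjusted p = 0.0488) and lost this call under 17 of 28 alternatives. These were median centring, no filter on dim probes, slide as a random block, and leaving out any 1 array other than WT E16.5 replicate 2, WT E18.5 replicates 1 and 2 and KO E18.5 replicate 3, with adjusted p from 0.0514 to 0.195.

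What else the members share was looked for in their sequences. Their GC content had a median of 43.3%, from 21.7% to 71.7%, against a median of 45% over all tested probes. AATAAA, searched on the printed strand, occurred in 15 members, 10.3%, and in 7.69% of all tested probes. The 15 count both probes of the overlapping pairs Z00030528-1 with Z00057992-1 and Z00034766-1 with Z00060812-1, which hold the same stretch. TTTATT, its reverse complement, occurred in 9 members, 6.16%, against 3.14%. The members' median GC content was thus only slightly below that of all tested probes, and no other motif was searched.

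Gene models were not used here, and the members were matched only to the RefSeq promoter windows (250 bases before to 50 after each gene's start, GRCm38.p6) and the RefSeq miRNA hairpins. Of the 146 members, 0 matched a miRNA hairpin over 20 or more bases and 2 matched 1 of the 32851 promoter windows. Both are shown because they are the only members with a position here.
Z00067665-1: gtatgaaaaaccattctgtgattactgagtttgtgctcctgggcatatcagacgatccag
Z00075360-1: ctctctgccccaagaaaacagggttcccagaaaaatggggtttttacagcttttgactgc

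Z00067665-1 matched 52 bases at chr10:129462676-129462727, on the plus strand and in the direction of Olfr787, an olfactory receptor gene, whose RefSeq span runs from 129461940 to 129463616. The match stops where the window ends. This probe fell little on the second scale, with WT means of 0.62 ± 0.20, 0.98 ± 0.28 and 0.87 ± 0.89 and KO means of 0.27 ± 0.16, 0.58 ± 0.32 and 0.14 ± 0.07 (SD, n = 3). Its reference signal was above background on 1 array.

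Z00075360-1, the sixth by mean fall, matched over all 60 bases at chr4:155888885-155888944. The position lies in the promoter window of LOC115489960, a long noncoding RNA on the minus strand, and the probe reads the opposite strand. It also lies inside the RefSeq spans of Ints11, which encodes a subunit of the Integrator complex that cuts small nuclear RNAs, and of Pusl1, which encodes a pseudouridine synthase-like protein. The table used gives no strand or exons for these spans, so the gene whose RNA the probe measures was not settled.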

How the data were processed

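Per the file headers, the deposited scanner files come from Agilent Feature Extraction 9.5.1.1 and give mean and background spot intensity and processed intensity per channel. The members were chosen on the deposited processed intensities, as log2 of Cy3 over Cy5. The deposited value table, whose scale and centring are unstated, followed log10 of sample over reference per array (r = 1.000 after centring each probe, with a constant per probe of unknown origin and column medians from 2.44 to 2.48); it served as an alternative only.

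In R 4.3.3 with limma 3.58.1, intensities were corrected by normexp (offset 50) and normalized by loess within each array, without outlier spots, control spots having weight 0. A probe was tested where Cy3 was well above background on all 3 arrays of at least 1 group, which left 27989 probes with all 146 members. A mean per group was fitted to the 18 arrays by lmFit and eBayes, with two-sided Benjamini-Hochberg adjusted p-values and a threshold of 0.05. The replicate 3 test used its 6 arrays with stage as a term, and its filter used replicates 1 and 2. Where replicates share an embryo or litter is not stated, so p-values measure the spread between these arrays.

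Named are the 10 largest mean falls, members that no KO array measured, the 3 probes on each side of the threshold, members that share sequence, the 2 largest called rises and falls of each stage change, and members matched to the reference; the largest falls of the replicate 3 test, the exceptions to it and the overlapping probes outside the set were added after their values were seen. These are more probes than the about 30 planned. The members, lists and tests were chosen with earlier results of these data known. On data simulated for 27989 probes, the stage tests found 83% to 88% of 2-fold changes. On data simulated for the 28815 probes of the replicate 3 test, it found 2% of 2-fold and 72% of 4-fold changes. Replicate numbers were checked by correlating deviations from the group means: only for KO E14.5 and E16.5 did every pair exceed 0.1 (0.23, 0.35 and 0.18), and there the replicate block gave 20 calls in place of 17.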

Additional observations from a re-analysis of the deposited data

Results flagged for a closer look

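From E14.5 to E18.5, 2 members moved in opposite directions in the genotypes on every array: all WT E18.5 arrays lay below all WT E14.5 arrays, and all KO E18.5 arrays above all KO E14.5 arrays. Z00012780-1 changed by -0.43 in WT, from 0.20 ± 0.02 to -0.22 ± 0.22, and by 0.29 in KO, from -2.07 ± 0.16 to -1.78 ± 0.14 (SD, n = 3). Z00059237-1 changed by -0.50 in WT, from 0.50 ± 0.14 to -0.00 ± 0.39, and by 0.74 in KO, from -2.40 ± 0.20 to -1.66 ± 0.37. The difference between the genotypes was not tested for either. Such opposite changes were found in 1.37% of the members and in 1.37% of all tested probes. Z00012780-1 was well above background on 6 of the 9 KO arrays and on 1 at E18.5.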

How the results depend on the processing

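The number of members depended on how signals were corrected: in place of 146, the rule gave 84 without background subtraction, 43 with median centring, 53 with Cy3 alone, 83 with the value table and 60 with normexp and loess values, 59 of them in the set (the last chosen after seeing the data), and 141 to 156 without single arrays. For the stage changes, members called in WT from E14.5 to E18.5 (64) became 35 of 83 with the value table and 40 of the 90 above background on all 18 arrays, which test fewer members, and 52 to 80 without single arrays. In KO, calls from E14.5 to E16.5 (17) became 28 with processed signals, 6 with median centring and 11 to 22 without single arrays. Calls from E16.5 to E18.5 (13) became 22 without background subtraction, 38, 4, 21 and 26 with processed signals, median centring, Cy3 alone and the value table (83 members), 23 of 111 with only the 6 arrays compared, and 10 to 19 without single arrays. From E14.5 to E18.5 the 40 became 63 with processed signals, 17 with median centring and 30 to 44 without single arrays. With the replicate block, the 4 counts were 63, 20, 16 and 40. In replicate 3 the 27 calls became 0 with median centring or the value table, 3 with processed signals or Cy3 alone, 8 with no filter and 14 to 73 without single arrays; the median of -1.11 became -1.91, -0.89, -1.85 and -1.31 with processed signals, median centring, the value table and probes above background on all arrays, and -1.14 to -1.02 without single arrays. The medians of KO against WT (-1.205, -1.08 and -1.03) became -1.96, -1.91 and -2.04 from processed signals, -1.92, -1.85 and -1.94 from the value table, and -1.22 to -1.18, -1.18 to -1.05 and -1.17 to -0.995 without single arrays. No median or named stage change turned its sign, but the balance of WT rises and falls did: 32 and 32 became 39 and 27 with processed signals and 11 and 41 with median centring. Other causes of the moves were not tested. No paired analysis was possible for the replicate 3 test or the number of members because these use no fit over replicate numbers.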
